A study of Mus musculus with 2 samples.

Results

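*Ccl2*, *Ccl7*, *Ccl8* and *Ccl12*, which encode the monocyte chemoattractant proteins of the mouse, and *Ccr2*, which encodes the receptor of monocytes for such ligands, were taken by their symbols from the gene lists of both count matrices. All 5 genes were found among the 32285 genes listed, each as 1 row. The matrices hold counts of RNA molecules, tagged with unique molecular identifiers (UMIs), in sorted live single cells. The cells came from tumors formed by MC38, a colon cancer line of the mouse, under the skin of young adult female mice. One library came from *Lmo7*+/+ hosts and 1 from *Lmo7*-/- hosts. By their labels the hosts of the second library lack *Lmo7*, a deletion that the injected MC38 cells do not carry, and no other treatment is named. The sources used here do not name the number of mice behind a library. Each genotype has 1 library, so the genotypes could not be tested against each other, and genotype, mice and library cannot be told apart.

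Monocyte chemoattractant proteins are small secreted CC chemokines that recruit monocytes from the blood into inflamed tissue and tumors. CCL2, CCL7 and CCL12 bind CCR2, a receptor that couples to inhibitory G proteins and is carried by Ly6c-high monocytes, which lower it as they mature into macrophages. Mouse CCL8 is best known as a ligand of another receptor, CCR8. Stromal cells, tumor cells and macrophages are all known sources of these ligands, often after NF-kB or interferon signals.

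The 4 ligand genes lie on the plus strand of chromosome 11 within 81.2 kb in the GENCODE M21 annotation of GRCm38, in the order *Ccl2* (ENSMUSG00000035385, 82035571 to 82037453), *Ccl7* (ENSMUSG00000035373, 82045712 to 82047525), *Ccl12* (ENSMUSG00000035352, 82101845 to 82103400) and *Ccl8* (ENSMUSG00000009185, 82115185 to 82116799). *Ccl2* and *Ccl7* are separated by 8.3 kb, *Ccl12* and *Ccl8* by 11.8 kb, and *Ccl11*, which is no member, lies between the pairs. *Ccr2* (ENSMUSG00000049103) lies on the plus strand of chromosome 9 from 124101950 to 124113557. The longest exact run of bases that annotated transcripts of 2 members share was 23 bases, between *Ccl2* and *Ccl7*.

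The promoters of the neighbours *Ccl12* and *Ccl8* are shown because these genes differed in opposite directions between the libraries in macrophages, as given further on. Each is the 250 bases before the annotated start on the plus strand of GRCm38.p6, as listed by RefSeq, chr11:82101595-82101844 for *Ccl12* and chr11:82114935-82115184 for *Ccl8*, and the capitals mark the TATA motif.
*Ccl12*: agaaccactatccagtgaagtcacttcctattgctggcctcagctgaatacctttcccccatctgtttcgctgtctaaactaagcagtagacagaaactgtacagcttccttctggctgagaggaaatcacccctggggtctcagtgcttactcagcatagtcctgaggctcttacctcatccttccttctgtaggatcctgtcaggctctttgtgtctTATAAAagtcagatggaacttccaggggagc
*Ccl8*: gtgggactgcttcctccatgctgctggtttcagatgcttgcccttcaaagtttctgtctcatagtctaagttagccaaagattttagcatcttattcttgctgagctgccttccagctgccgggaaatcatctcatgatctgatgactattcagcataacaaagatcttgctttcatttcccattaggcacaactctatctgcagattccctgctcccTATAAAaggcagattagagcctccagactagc

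Both windows hold TATAAA, 31 to 26 bases before the start of *Ccl12* and 32 to 27 bases before that of *Ccl8*, which 12.4% of 32851 promoter windows of the same length hold on either strand. The letters TGANTCA (AP-1, in 6.75% of windows) and TTCNNNGAA (GAS, 7.02%) were found on neither strand of these 2 windows. The promoter table used here has an entry for *Ccr2* and none for *Ccl2* and *Ccl7*.

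The libraries held 16208 (*Lmo7*+/+) and 15163 (*Lmo7*-/-) droplets that the authors had called as cells, with 98582479 and 80648345 UMIs. Cells with 500 or more genes, 1000 or more UMIs and no more than 15% of UMIs from mitochondrial genes were kept, 13542 and 11860 in number, with medians of 4536 and 4305 UMIs. Of the barcodes of the cells kept, 175 occurred in both libraries. The cells formed 33 clusters, made without the 5 genes, and 18 of them took one of 10 class names from markers and, for tumor cells, from a chromosome profile of expression. The classes were tumor cell-like (5841 and 4388 cells), macrophage-like (3909 and 4108), mesenchymal with the tumor chromosome profile (832 and 616), T-like (469 and 640), M-MDSC-like, that is Ly6c-high monocytes (457 and 285), dendritic-like (331 and 216), fibroblast-like (130 and 98), endothelial-like (100 and 74), NK-like (78 and 56) and mast or basophil-like cells (7 and 21). Clusters with 10.3% and 11.5% of the cells kept no class name. All 12 macrophage, 12 fibroblast and 10 M-MDSC markers reached 5 counts per 1000000 (CPM) in the clusters of those names, whereas only 4 to 5 of 15 epithelial markers did so in the tumor cell-like clusters, whose name rests on the chromosome profile. This count does not set host classes apart. All 12 macrophage markers also reached 5 CPM in the M-MDSC-like and endothelial-like clusters. Host names rest on how high the markers were against other clusters. *Lmo7* itself was at 19.8 and 15.9 CPM in tumor cell-like cells and at 0.899 and 0.813 CPM (19 and 16 counts) in macrophage-like cells. Among host classes it was highest in endothelial-like cells, at 35.8 and 29.0 CPM (18 and 12 counts), so counts of *Lmo7* were also found in host classes of the second library. The sources used here do not place these counts against the deleted part of the gene. The genotypes rest on the labels, and the second library is called the library labelled *Lmo7*-/- where a direction is given.

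Levels are counts summed over the cells of a class, per 1000000 counts of that sum. A UMI counts 1 molecule whatever its length, so CPM values of different genes are levels of counted molecules, not divided by length. In each pair of values the *Lmo7*+/+ library comes first, and 95% intervals (exact Poisson for CPM, and exact Clopper-Pearson for shares and, by way of how a gene's counts divide between the libraries, for log2 ratios) cover counting error only, not the spread between mice.

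*Ccl2* and *Ccl7* were highest in fibroblast-like cells in both libraries. *Ccl2*, the main monocyte attractant among the ligands, had 919 and 901 counts there, or 1403 (1314 to 1497) and 1622 (1518 to 1732) CPM. *Ccl7*, its neighbour, had 1036 and 704 counts, or 1582 (1487 to 1681) and 1268 (1176 to 1365) CPM. The class with the next highest level among those with at least 50 cells per library was another for each gene.

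For *Ccl2* it was the mesenchymal class with the tumor chromosome profile, at 359 (345 to 375) and 488 (470 to 506) CPM, followed by macrophage-like cells at 153 and 111 CPM, tumor cell-like cells at 122 and 147 CPM and endothelial-like cells at 137 and 94.4 CPM. The order of these last 3 classes was not the same in both libraries. M-MDSC-like cells had 43.2 and 53.4 CPM, and dendritic-like, T-like and NK-like cells had 0 to 19.8 CPM.

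For *Ccl7* it was the macrophage-like class, at 184 (178 to 189) and 136 (131 to 141) CPM, ahead of the mesenchymal class at 51.5 and 43.5 CPM and of tumor cell-like cells at 33.7 and 20.7 CPM. The intervals of these 3 classes did not overlap in either library, while endothelial-like cells, at 59.7 and 9.68 CPM, changed their place among them. *Ccl2* and *Ccl7* thus had the same leading class, and tumor cells held *Ccl2* above *Ccl7* by counted molecules.

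*Ccl12*, a ligand gene of the mouse, was highest in macrophage-like cells, with 10235 and 7605 counts, or 484 (475 to 494) and 386 (378 to 395) CPM. M-MDSC-like cells followed with 112 (94.8 to 131) and 134 (108 to 164) CPM, and fibroblast-like cells with 39.7 and 52.2 CPM. In M-MDSC-like cells of the library labelled *Lmo7*-/- a single cell held 43 of the 93 *Ccl12* counts. Without thinning to equal depth, a *Ccl12* UMI was found in 14.0% and 8.77% of M-MDSC-like cells, whose median UMIs were 2680 and 2050. With cells thinned to 1500 UMIs the shares were 9.18% (6.52 to 12.5) and 7.52% (4.44 to 11.8). Tumor cell-like cells had 4.06 and 2.52 CPM, below the 14.1 and 4.83 CPM of T-like cells, which served as background for the ligands.

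*Ccl8* was highest in macrophage-like and in fibroblast-like cells. Macrophage-like cells held 1926 and 5559 counts of it, or 91.2 (87.1 to 95.3) and 282 (275 to 290) CPM. Fibroblast-like cells held 76 and 127, or 116 (91.4 to 145) and 229 (191 to 272) CPM. The 2 classes had overlapping intervals in the *Lmo7*+/+ library and differed in their order between the libraries. All other classes of at least 50 cells per library lay at 0 to 14.5 CPM, with T-like cells at 2.22 and 4.83 CPM.

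*Ccr2*, the receptor, had another order than any ligand. M-MDSC-like cells led with 957 and 544 counts, or 690 (647 to 735) and 785 (720 to 854) CPM, followed by NK-like cells at 220 (155 to 301) and 449 (338 to 584) CPM. The M-MDSC-like level was not kept under other settings. Over both libraries it was 721 CPM, but 343 to 437 CPM with the lenient filter, the strict filter, doublets removed or resolution 1.0, against 315 CPM in NK-like cells. T-like cells had 91.1 and 115 CPM and macrophage-like cells 104 and 95.9 CPM, neighbours whose order was not the same in both libraries. Dendritic-like cells had 69.9 and 45.5 CPM, and the stromal and tumor classes 0.917 to 21.9 CPM. Tumor cell-like cells, the background for *Ccr2*, were at 1.23 and 0.917 CPM.

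**Figure D1:**
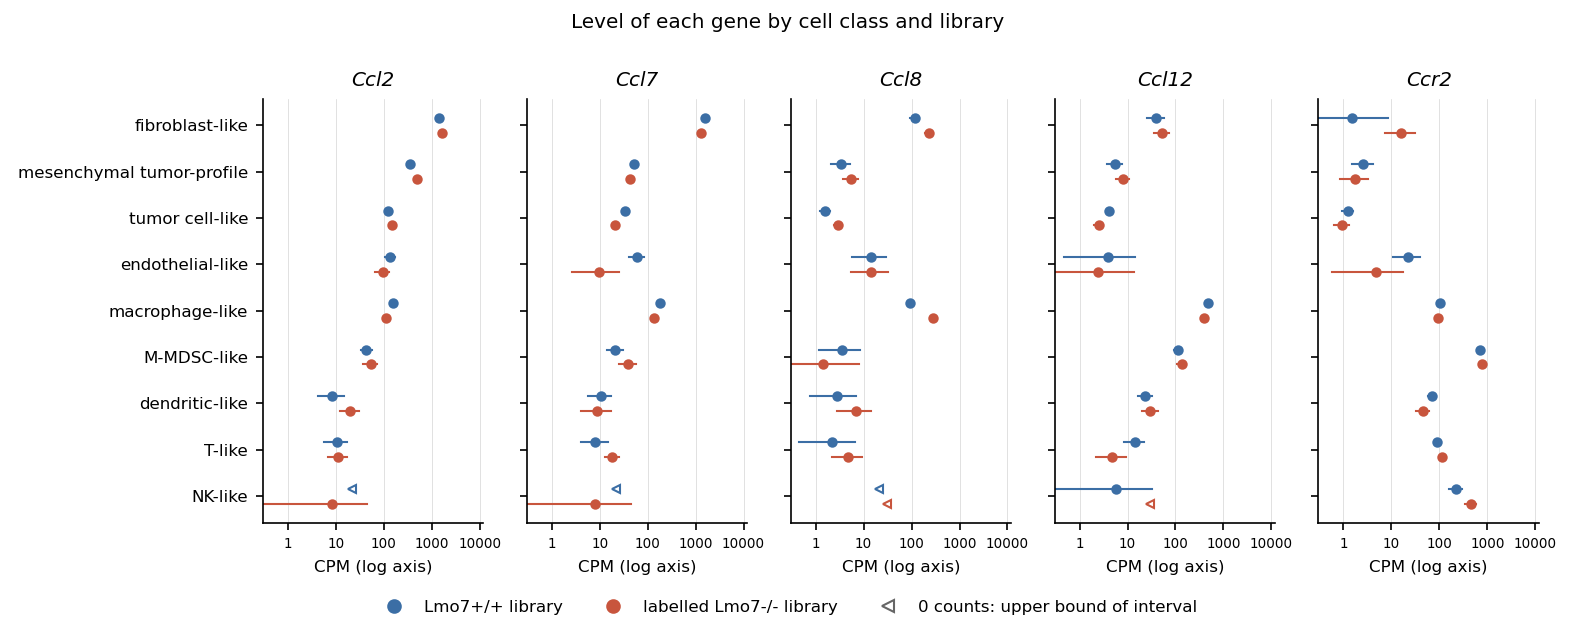
Level of each gene (columns) in 9 cell classes (rows), in CPM on a log axis, for the *Lmo7*+/+ library (blue) and the library labelled *Lmo7*-/- (red), with exact 95% Poisson intervals, and open triangles at the upper bound where the count was 0. Fibroblast-like cells lie farthest to the right for *Ccl2* and *Ccl7*, macrophage-like cells for *Ccl12* and M-MDSC-like cells for *Ccr2*, while the red *Ccl8* point of macrophage-like cells (282 CPM) lies to the right of the blue one (91.2 CPM).

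Mast or basophil-like cells also appeared high, with *Ccl2* at 239 and 1019 CPM and *Ccl7* at 136 and 1162 CPM. These values rest on few cells. A single cell of the library labelled *Lmo7*-/- held 84.6% of its 65 *Ccl7* counts and a single cell held 56.1% of its 57 *Ccl2* counts. *Ccr2* had 0 counts in these cells, which allows up to 102 and 53.6 CPM (3 counts).

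The class with the highest level was often not the one that held most molecules. Fibroblast-like cells made up 0.960% and 0.826% of the cells and held 6.19% and 6.69% of all *Ccl2* UMIs and 11.99% and 10.71% of all *Ccl7* UMIs. Tumor cell-like cells held the largest share of *Ccl2*, at 44.8% (44.0 to 45.6) and 41.7% (40.9 to 42.5), while they were 43.1% and 37.0% of the cells and held 57.7% and 50.1% of all UMIs. The mesenchymal class added 14.9% and 20.4%. Macrophage-like cells held 21.7% and 16.2% of *Ccl2*, 44.9% and 40.7% of *Ccl7*, 55.8% and 67.9% of *Ccl8* and 81.1% and 80.7% of *Ccl12*. For *Ccr2* they held 58.0% and 58.8%, more than the 25.3% and 17.0% of M-MDSC-like cells, whose level was higher. That split moves with the border drawn between monocytes and macrophages. With the lenient filter macrophage-like cells held 26.0% and 22.0%.

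**Figure D2:**
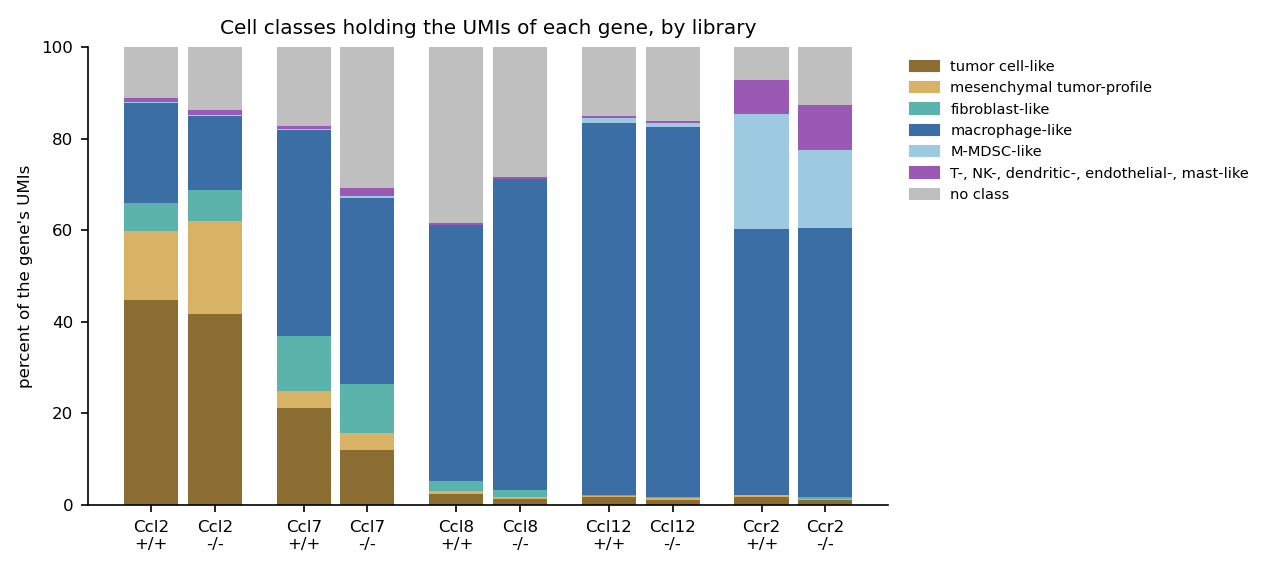
Share of each gene's UMIs (percent of those in all cells kept) held by each cell class, with 1 bar for the *Lmo7*+/+ library (+/+) and 1 for the library labelled *Lmo7*-/- (-/-). Tumor cell-like cells form the largest part of the *Ccl2* bars (44.8% and 41.7%), macrophage-like cells that of the *Ccl12* bars (81.1% and 80.7%), and cells without a class name (grey) hold 38.4% and 28.5% of *Ccl8*.

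After each cell was thinned to 1500 UMIs, *Ccl2* was detected in 67.7% of 99 and 68.3% of 82 fibroblast-like cells and *Ccl7* in 62.6% and 57.3%. In the mesenchymal class 30.4% and 35.0% of cells had a *Ccl2* UMI, and in tumor cell-like cells 12.97% (12.07 to 13.91) of 5182 and 12.05% (11.03 to 13.13) of 3801. T-like cells gave a background of 2.00% and 0.851% for *Ccl2*, from medians of 2197 and 2179 UMIs before thinning against 6260 and 5608 in tumor cell-like cells. *Ccl7* in tumor cell-like cells, at 4.21% and 2.45%, also lay above its background of 0.571% and 0.426%. *Ccl8* (0.270% and 0.526%) and *Ccl12* (0.849% and 0.579%) in tumor cell-like cells lay within the intervals of T-like cells, or under them for *Ccl12* in the *Lmo7*+/+ library, and were read as background.

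In macrophage-like cells thinned in the same way *Ccl12* was detected in 29.9% of 3512 and 26.2% of 3647 cells, *Ccl2* in 16.0% and 11.4%, *Ccl7* in 15.6% and 12.8% and *Ccr2* in 383 and 401 of these cells. *Ccl8* was detected in 6.18% (5.41 to 7.03) and 14.9% (13.8 to 16.1), against 0.286% and 0.638% in T-like cells. In M-MDSC-like cells *Ccr2* was detected in 56.4% (51.3 to 61.4) of 392 and 61.1% (54.4 to 67.5) of 226 cells, against 0.367% and 0.237% in tumor cell-like cells. Before thinning the shares of macrophage-like cells with *Ccl8* were 12.1% and 22.8%, and those of M-MDSC-like cells with *Ccr2* 69.8% and 71.9%. Thinning left out 397 and 461 macrophage-like, 65 and 59 M-MDSC-like, 659 and 587 tumor cell-like, 142 and 76 mesenchymal, 31 and 16 fibroblast-like and 119 and 170 T-like cells.

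Within the macrophage-like class the ligands were found together unevenly. Of thinned cells with a *Ccl2* UMI, 37.3% and 30.2% also had *Ccl7*, against 11.5% and 10.6% of cells without *Ccl2*. For *Ccl12* these shares were 52.6% and 42.9% with *Ccl2* against 25.5% and 24.1% without. For *Ccl8* they were 5.86% and 14.87% with *Ccl2* against 6.24% and 14.95% without, which are close to each other in both libraries. *Ccr2* went the other way. Of macrophage-like cells with a *Ccl8* UMI 5.99% and 1.65% had *Ccr2*, against 11.2% and 12.6% of those without, and the shares were 5.51% and 8.63% with *Ccl2* against 11.9% and 11.3% without. In all, 45.6% and 46.2% of these cells had a UMI of at least 1 ligand gene, and 0.171% and 0.247% had all 4. Fibroblast-like cells had a UMI of at least 1 ligand gene in 79.8% and 81.7%, and of those with *Ccl7* 83.9% and 85.1% had *Ccl2*, against 40.5% and 45.7% of those without. These shares describe cells of 1 library each, which are not independent replicates.

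The comparison of the hosts asked how the levels in the tumor's cells differ when the host lacks *Lmo7*. The log2 ratio is that of CPM in the library labelled *Lmo7*-/- over the *Lmo7*+/+ library, given where a gene had at least 20 counts over both. A ratio of at least 0.5 in either direction is named as past 0.5, which 13% of 12239 genes were in macrophage-like cells, with a median over these genes of -0.11.

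In macrophage-like cells *Ccl8* stood apart from its neighbours, being 3.10-fold higher in the library labelled *Lmo7*-/- (log2 ratio 1.63, 1.56 to 1.71). The other members were lower. *Ccl2* had a log2 ratio of -0.46 (-0.54 to -0.38), *Ccl7* of -0.43 (-0.51 to -0.36), *Ccl12* of -0.33 (-0.37 to -0.28) and *Ccr2* of -0.12 (-0.21 to -0.027). Thus 1 of 5 members was past 0.5. *Ccl8* was uneven over cells. The 1% of macrophage-like cells with the most *Ccl8* held 48.3% and 33.4% of it, against 20.1% and 19.3% for *Ccl12*. A single cell of the library labelled *Lmo7*-/- held 207 of 2181 *Ccl2* counts. All directions in macrophage-like cells were kept under the 14 alternative settings, with *Ccl8* at 1.23 to 1.73. *Ccl2* ranged from -0.64 to -0.26 and *Ccl7* from -0.65 to -0.14, so both crossed 0.5 under some, and *Ccr2* ranged from -0.53 to -0.021. Summed markers of T cells were at 33.8 and 33.0 CPM in these cells, those of fibroblasts at 109 and 84.4 CPM and the 15 epithelial markers at 43.7 and 35.5 CPM, with *Krt20* and *Cldn4* at 0. The 11 endothelial markers were at 46.2 and 83.3 CPM and the 10 M-MDSC markers at 610 and 785 CPM. The summed macrophage markers themselves were at 17586 and 20836 CPM. Their part in the ratios was not tested.

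In fibroblast-like cells, where 32.6% of 6818 genes were past 0.5, *Ccl8* was higher in the library labelled *Lmo7*-/- (log2 ratio 0.98, 0.56 to 1.41), *Ccl2* was slightly higher (0.21, 0.076 to 0.34) and *Ccl7* lower (-0.32, -0.46 to -0.18). The interval of *Ccl12* included 0 (0.40, -0.42 to 1.22). Beside these, the 12 macrophage markers summed to 1026 and 1372 CPM in fibroblast-like cells, with 11 of them at 5 CPM or more in both libraries, and the 10 T cell markers to 45.8 and 112 CPM, and their part was not tested. Among the 37 fibroblast-like cells without UMIs of other lineages the log2 ratio of *Ccl7* was -1.11. *Ccl8* was detected in 9.09% (4.24 to 16.6) and 23.2% (14.6 to 33.8) of thinned fibroblast-like cells.

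In M-MDSC-like cells, where 23.6% of 7580 genes were past 0.5, *Ccr2* had a log2 ratio of 0.19 (0.032 to 0.34). This direction was not kept. It was between -0.099 and -0.017 with the lenient filter, the strict filter, resolution 1.0 and the members among the clustering genes, 0.016 with doublets removed and 0.21 with 20 principal components. Each of these settings enlarged the class. *Ccl2* (0.30, -0.33 to 0.92) and *Ccl12* (0.26, -0.12 to 0.64) had intervals that included 0. A single cell of the library labelled *Lmo7*-/- held 43 of its 93 *Ccl12* counts in this class. *Ccl7* was past 0.5 with 29 and 27 counts (0.90, 0.087 to 1.71), but its sign turned when cells were filtered leniently or 20 principal components were used. *Ccl8* had 5 and 1 counts. Summed neutrophil markers were at 531 and 154 CPM in these cells.

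In tumor cell-like cells, where 10.3% of 13894 genes were past 0.5, *Ccl2* was 1.21-fold higher in the library labelled *Lmo7*-/- (log2 ratio 0.27, 0.22 to 0.33), and *Ccl7* was lower (-0.70, -0.82 to -0.58). *Ccl8* (0.92) and *Ccl12* (-0.69) were at background levels. In the mesenchymal class, where 19.7% of 11674 genes were past 0.5, *Ccl2* had a log2 ratio of 0.44 (0.36 to 0.52), while *Ccl7* (-0.24, -0.49 to 0.0026), *Ccl8* (0.69, -0.15 to 1.56) and *Ccl12* (0.58, -0.10 to 1.27) had intervals that included 0. *Ccr2* had 16 and 10 counts there. With the mean of per-cell CPM in place of summed counts the *Ccl2* ratio was 0.095 in tumor cell-like cells and 0.18 in the mesenchymal class. The 1% of tumor cell-like cells with the most *Ccl2* held 22.5% and 30.2% of it. Without thinning, 32.2% and 26.9% of tumor cell-like cells had a *Ccl2* UMI.

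**Figure D3:**
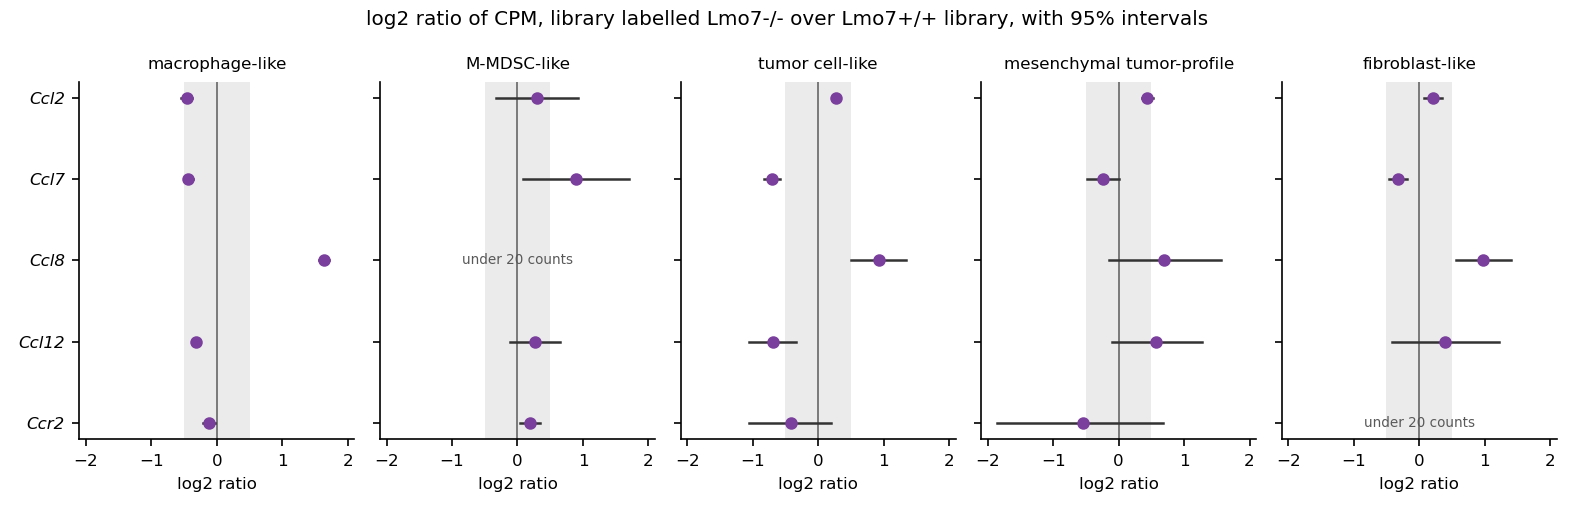
log2 ratio of CPM in the library labelled *Lmo7*-/- over the *Lmo7*+/+ library for each gene (rows) in 5 cell classes (panels), with 95% intervals for counting error and grey between -0.5 and 0.5. *Ccl8* is the gene farthest to the right in the macrophage-like panel (1.63), *Ccl2* lies left of 0 there (-0.46) and right of 0 in the tumor cell-like panel (0.27), and the M-MDSC-like intervals are wide.

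The tumor cell-like ratio of *Ccl2* joined clusters that went in opposite directions. In the largest, c1, led by *Shisal2b*, *Klra4* and *Tm4sf1*, *Ccl2* was at 121 (117 to 124) and 191 CPM (log2 ratio 0.66, 0.60 to 0.72). In c2, led by *Car9*, *Cdsn* and *Ndufa4l2*, of which *Car9* and *Ndufa4l2* are known to be induced by low oxygen, it was at 139 (133 to 145) and 48.4 CPM (-1.52, -1.67 to -1.38). In c3, whose cells had a median of 2012 UMIs, it was at 42.1 and 42.0 CPM. The level in c2 was thus above that in c1 in the *Lmo7*+/+ library and under it in the library labelled *Lmo7*-/-. Thinned cells of c2 with a *Ccl2* UMI were 13.8% (12.1 to 15.8) of 1358 and 4.66% of 1029, against 13.3% and 15.8% in c1. *Ccl7* was lower in both, at 34.4 and 23.5 CPM in c1 (-0.55) and at 33.5 and 13.5 CPM in c2 (-1.31). The cluster with the highest *Car9* kept a negative *Ccl2* ratio under 6 of 7 other filters and clusterings (-1.37 to -0.12), and at resolution 0.2, where it took in 11381 cells, the ratio was 0.36.

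The cells without a class name held 38.4% and 28.5% of *Ccl8* UMIs, most of them in a small group, c13, which is closest to macrophages. All 12 macrophage markers reached 5 CPM in each of its 3 clusters, as they also did in the M-MDSC-like and endothelial-like clusters. The 3 clusters of c13 were left without a name. In c13.0 and c13.2 the 10 leading genes held the monocyte marker *F13a1* and no macrophage marker of the list, and in c13.1 the macrophage markers lay on average under 0.4 of their highest level in any cluster. The group had 96 and 97 cells, or 0.709% and 0.818% of all cells, and held 34.6% and 19.8% of *Ccl8*, 8.01% and 11.2% of *Ccl7* and 2.92% and 3.41% of *Ccl2*. The genes *Folr2*, *Lyve1* and *Cbr2*, which lead its cluster c13.2, are known from resident macrophages of tissues.

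In c13.2, with 18 and 29 cells, the members reached the highest levels of any cluster except for *Ccl12* and *Ccr2*. *Ccl8* was at 6642 (6041 to 7285) and 7334 (6855 to 7838) CPM, *Ccl7* at 4378 (3894 to 4907) and 4274 (3910 to 4663) CPM and *Ccl2* at 2500 (2137 to 2906) and 2504 (2227 to 2805) CPM. The libraries had overlapping intervals for all 3, with log2 ratios of 0.14, -0.035 and 0.0023. Of 14 and 26 thinned cells, 13 and 25 had a *Ccl8* UMI. In the related c13.0, led by *Folr2*, *Ccl8* and *F13a1*, *Ccl8* was at 1862.5 and 4693.9 CPM (log2 ratio 1.33, 1.18 to 1.48) and *Ccl12* at 1133 and 412 CPM (-1.46, -1.86 to -1.08). There 1 cell held 35.4% of the 752 *Ccl8* counts of the library labelled *Lmo7*-/-. In c13.1, led by *Retnla*, *Lyz1* and *Ccl6* and with 14 and 37 cells, *Ccl8* had 17 and 0 counts. *Ccr2* was at 595 (395 to 860) and 645 (530 to 778) CPM there, from 28 and 109 counts. These values lay near the main level of M-MDSC-like cells, which was not kept under other settings.

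A second unnamed group close to macrophages, c9, was led by *Cd300e*, *Klra17* and *Ccl4* and held 149 and 446 cells, or 1.10% and 3.76%. Its *Ccl7* level was 375 (337 to 417) and 447 CPM, and its share of all *Ccl7* UMIs was 3.97% and 15.4%. *Ccl12* was at 728 (673 to 785) and 387 CPM, *Ccl8* at 70.0 and 112 CPM and *Ccr2* at 17.5 and 13.22 CPM. With c9 and c13 counted as macrophages, the macrophage log2 ratio of *Ccl8* was 1.23 (1.17 to 1.29), that of *Ccl7* -0.14 (-0.20 to -0.08) and that of *Ccl2* -0.26 (-0.33 to -0.20).

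**Figure D4:**
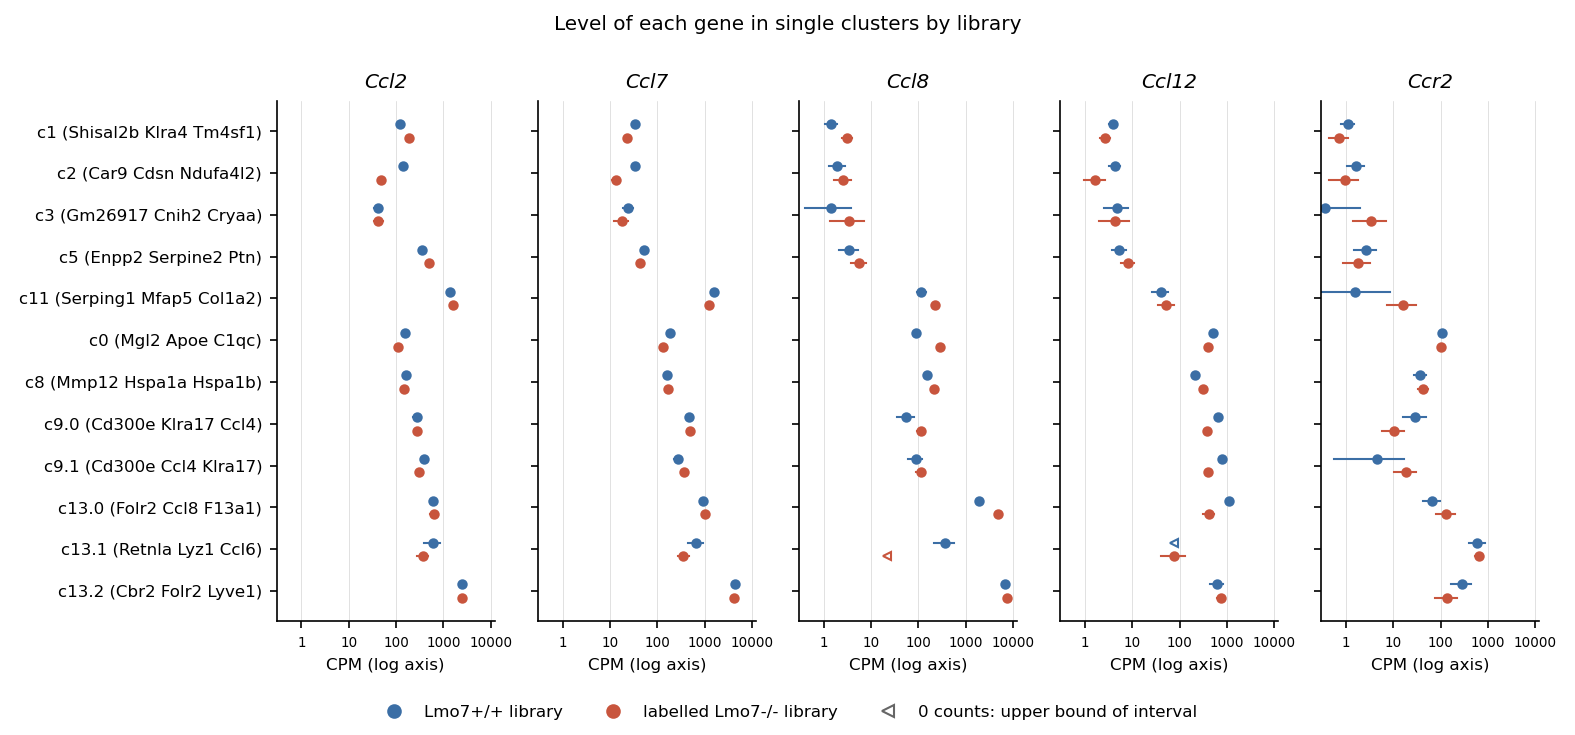
Level of each gene (columns) in 12 single clusters (rows, with their first 3 leading genes), in CPM on a log axis, for the *Lmo7*+/+ library (blue) and the library labelled *Lmo7*-/- (red), with exact 95% Poisson intervals and open triangles at the upper bound where the count was 0. The blue and red *Ccl2* points change places between c1 (121 and 191 CPM) and c2 (139 and 48.4 CPM), and c13.2 lies farthest to the right for *Ccl2*, *Ccl7* and *Ccl8*.

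Macrophage-like and M-MDSC-like cells and the unnamed clusters closest to macrophages were clustered again, without the members, into 9 subclusters named m1 to m9, the last of which held 14 cells of 1 library. *Ccr2* marked m2, a subcluster of 1985 cells led by *Ly6c2*, *Plac8* and *Chil3*, of which 35.7% were M-MDSC-like and 63.9% macrophage-like. It was at 422 and 396 CPM there (log2 ratio -0.093, -0.19 to 0.0074), and m2 held 54.1% and 56.8% of the *Ccr2* UMIs of these cells. The ligands were low in m2, with *Ccl8* at 3.13 and 8.01 CPM, *Ccl7* at 33.4 and 43.2 CPM and *Ccl2* at 45.5 and 52.3 CPM. *Ccl12* was at 153 and 225 CPM in m2 (0.55, 0.40 to 0.70), the direction opposite to that in macrophage-like cells.

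The largest subcluster, m1, with 3613 cells led by *H2-M2*, *Vcam1* and *Il18bp*, had *Ccl12* at 643 and 457 CPM, *Ccl8* at 145 and 453 CPM (log2 ratio 1.64, 1.55 to 1.73) and *Ccr2* at 63.4 and 37.3 CPM. The cycling subcluster m3, led by *Ccna2*, *Pclaf* and *Birc5*, had *Ccl8* at 74.0 and 145 CPM (0.97, 0.81 to 1.13). In m5, led by *Hspa1b*, *Hspa1a* and *Gpnmb* and with the highest *Mmp12* and *Arg1*, *Ccl8* was at 152 and 148 CPM (-0.043, -0.35 to 0.27). In the macrophage-like cluster c8 of the first clustering, led by *Mmp12*, *Hspa1a* and *Hspa1b*, it was at 154 and 212 CPM (0.46, 0.20 to 0.72). *Ccl8* was thus higher in the library labelled *Lmo7*-/- in 7 of 8 subclusters, though the interval of m7 included 0 (0.31, -0.15 to 0.77). The highest log2 ratio, 2.93, was that of m6, with 10 and 112 counts (12.8 and 97.5 CPM). The first clustering gave a smaller difference for clusters that, like m6, had *Cd300e* among their leading genes. *Ccl8* was at 54.5 and 111 CPM in c9.0 and at 86.9 and 113 CPM in c9.1. *Ccl12* was lower in 6 of 8 subclusters, and *Ccl2* was lower in 4 and higher in 4.

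Subcluster m7, led by the heat shock and early response genes *Hspa1a*, *Hspa1b* and *Klf2*, had 119 and 85 cells with *Ccl2* at 522 and 337 CPM, *Ccl7* at 846 and 421 CPM and *Ccl12* at 895 and 639 CPM, above m1 for each gene in both libraries. It held 10.3% and 3.26% of the *Ccl7* UMIs of the cells clustered again. The part of cell dissociation was not tested. Subcluster m4, led by *Sparc*, *Sox9* and *Dclk1*, which are not macrophage genes, had *Ccl2* at 116 and 272 CPM (log2 ratio 1.23). Without m4 and m7 the macrophage-like log2 ratio of *Ccl2* was -0.59. With each subcluster given the same weight in both libraries, the ratio of *Ccl8* over m1 to m8 was 1.24, against 1.27 from the sums, and that of *Ccr2* was -0.17 against -0.26.

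**Figure D5:**
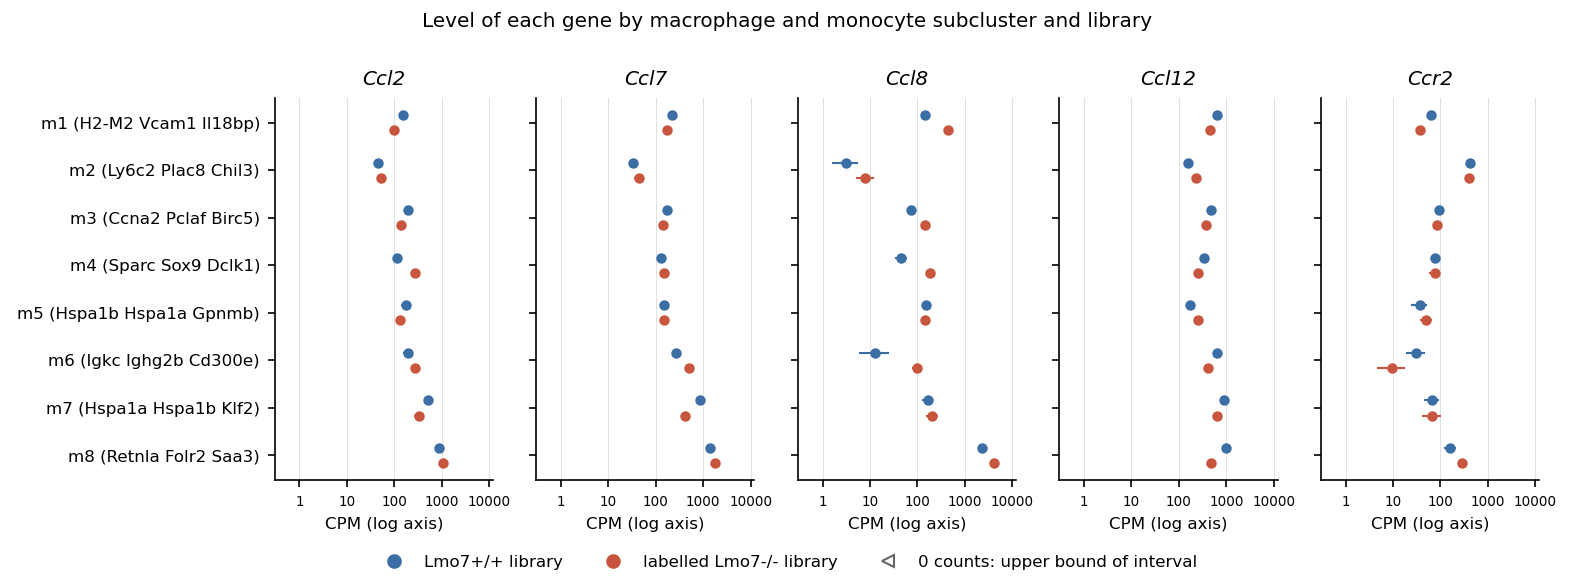
Level of each gene (columns) in 8 subclusters of macrophage-like, M-MDSC-like and related cells (rows, with their first 3 leading genes), in CPM on a log axis, for the *Lmo7*+/+ library (blue) and the library labelled *Lmo7*-/- (red), with exact 95% Poisson intervals. *Ccr2* lies farthest to the right in m2 (422 and 396 CPM), where *Ccl8* is lowest (3.13 and 8.01 CPM), and *Ccl2*, *Ccl7* and *Ccl8* are highest in m8.

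Among T-like clusters *Ccr2* was uneven. In c15, led by *Il2ra*, *Icos* and *Ctla4* and with *Foxp3* among its leading genes, it was at 353 (275 to 447) and 767 CPM (log2 ratio 1.12, 0.71 to 1.54), from 69 and 170 counts in 74 and 83 cells. The T-like cluster c6.0, led by *Gzmf*, *Cd8a* and *Il2rb*, was at 10.7 and 18.8 CPM. c15 held 1.82% and 5.30% of all *Ccr2* UMIs. The other T-like clusters had lower values in the library labelled *Lmo7*-/-, with overlapping intervals, at 24.8 and 11.7 CPM in c6.1, 204 and 111 CPM in c6.3 and 114 and 78.0 CPM in c6.4. These clusters were chosen after their values were seen. NK-like cells had 38 and 55 *Ccr2* counts (1.03, 0.41 to 1.67).

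The patterns of the genes over classes were compared over 18 profiles, the 9 classes with at least 50 cells per library in both libraries, by Pearson's r of log2(CPM + 1) among 13312 genes. The profiles of 1 library share its depth and its free RNA. *Pdpn* (r = 0.98), *C1ra* and *Gaa* were most like *Ccl2*, and *Plcl1* (0.89), *Rnase4* and *Ccl2* itself (0.88) most like *Ccl7*. *Scamp5* (0.92), *Ctsf* and *Gas6* were most like *Ccl8*, *Htra4* and *Gm10134* were among the 3 most like *Ccl12*, and *Irak2* (0.97), *Iqgap1* and *Dok2* were most like *Ccr2*. *Ccl12* and *Ccl2* had r = 0.24, and *Ccr2* had r from -0.64 to -0.23 with *Ccl2*, *Ccl7* and *Ccl8* and r = 0.35 with *Ccl12*.

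Other genes of the same system were taken from fixed lists. Beside them, 13% of all genes were past 0.5 in macrophage-like, 23.6% in M-MDSC-like and 32.6% in fibroblast-like cells. Of 16 other CC chemokine ligands, 10 had at least 20 counts in macrophage-like cells, with a median log2 ratio of 0.086. Of these 10, 3 were past 0.5 higher (*Ccl5*, *Ccl22* and *Ccl24*) and 2 lower (*Ccl3* and *Ccl4*). *Ccl22* had fewer than 100 counts over both libraries in these cells. *Ccl24*, an eosinophil attractant, was at 15.1 and 59.3 CPM (1.97, 1.79 to 2.15) and *Ccl5*, which attracts lymphocytes, at 126 and 454 CPM (1.85, 1.79 to 1.92). *Ccl3*, an inflammatory chemokine of macrophages, was at 128 and 73.4 CPM (-0.81, -0.90 to -0.71). *Ccl8* was thus not the only CC ligand with a high ratio. Of 10 other CC receptors 4 were measured and none was past 0.5, with *Ccr1* at 257 and 270 CPM. Of 12 genes of CCR2 signaling, which include its G protein and PI3 kinase subunits, all were measured and none was past 0.5 (median 0.023), with *Rac2* at 373 and 409 CPM and *Nup85* at 56.3 and 41.1 CPM.

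Of 13 measured genes for monocyte recruitment and survival, *Vcam1*, an adhesion molecule, was past 0.5 higher (482 and 709 CPM). *Il34*, a ligand of the CSF1 receptor, was past 0.5 lower, with fewer than 100 counts over both libraries. The fractalkine receptor *Cx3cr1* was at 534 and 414 CPM (-0.37). None of 10 NF-kB targets and inducers was past 0.5 (median 0.053), with *Il1b* at 3416 and 3910 CPM and *Nfkb1* at 187 and 173 CPM. Of 10 interferon gamma response genes 8 were past 0.5 higher (median 0.72), among them *Nos2* (28.7 and 111 CPM) and *Cxcl9* (741 and 1519 CPM), while *Cxcl10* (554 and 689 CPM) and *Ciita* (71.1 and 77.6 CPM) were not. Of 9 measured type I interferon genes none was past 0.5 higher and *Cmpk2* was lower (median -0.19), with *Isg15* at 362 and 372 CPM. Of 10 dissociation stress genes *Egr1* was past 0.5 lower (91.1 and 54.1 CPM, median -0.36). The 1 measured atypical receptor had a ratio of -0.014.

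In M-MDSC-like cells 23.6% of 7580 genes were past 0.5. Of 10 interferon gamma response genes 5 were past 0.5 higher (median 0.54). *Gbp2* was at 563 and 1095 CPM and *Cxcl9* at 458 and 806 CPM, beside *Gbp4*, *Irf1* and *Nos2*. Of 6 measured CC ligands *Ccl9* (115 and 193 CPM) and *Ccl24* were past 0.5 higher and *Ccl3* lower. Of 12 CCR2 signaling genes *Nup85* was past 0.5 lower, and of 11 measured recruitment genes *Cx3cr1* was lower (130 and 56.3 CPM, -1.20, -1.74 to -0.70). Of 10 NF-kB genes *Il1a* (58.4 and 113 CPM) and *Tnf* (132 and 196 CPM) were past 0.5 higher and *Il6* lower. Of 10 dissociation stress genes *Atf3* was past 0.5 higher and *Fosb* (428 and 278 CPM), *Hspa1a* and *Hspa1b* lower. Of 4 measured CC receptors *Ccr7* was past 0.5 lower, and of 9 type I interferon genes none was past 0.5. *Nos2*, *Ccl24*, *Nup85*, *Il6*, *Hspa1a*, *Hspa1b* and *Ccr7* had fewer than 100 counts over both libraries in these cells.

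In fibroblast-like cells, where more of all genes were past 0.5, this held in the higher direction for 3 of 5 measured CC ligands (*Ccl3*, *Ccl4* and *Ccl19*), the 1 measured atypical receptor (*Ackr3*), 4 of 9 CCR2 signaling genes (*Rac2*, *Rgs1*, *Rgs2* and *Ptk2b*), 4 of 11 recruitment genes (*Csf1r*, *Itgam*, *Itgb2* and *Icam1*), 5 of 10 NF-kB genes (*Nfkb1*, *Nfkb2*, *Birc3*, *Il1b* and *Il1a*) and 6 of 9 interferon gamma response genes. It held in the lower direction for 1 CCR2 signaling gene (*Nup85*), 2 of 7 type I interferon genes (*Ifit3* and *Rsad2*) and 2 of 10 dissociation stress genes (*Jun* and *Egr1*). Of the genes named here, only *Ackr3*, *Rgs2*, *Icam1*, *Nfkb1*, *Il1b*, *Ifit3*, *Jun* and *Egr1* had at least 100 counts over both libraries. *Csf1r*, *Itgam*, *Itgb2* and *Il1b* are known from myeloid cells, and the macrophage markers were at 1026 and 1372 CPM and the T cell markers at 45.8 and 112 CPM in these cells. Their part was not tested.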

How the data were processed

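Single-cell RNA libraries of live cells sorted from MC38 tumors were made on the 10x Chromium platform, 1 per host genotype, and pooled before sequencing. The authors deposited raw UMI counts per gene and droplet, after their own cell calling. The submitters' processing notes name Cell Ranger 2.1.1 and mm10, whereas the matrix headers name software version 3.0.0 and barcodes have 24 bases, so the counting software and chemistry are not settled. Depth was 98582479 and 80648345 UMIs. Intervals cover counting error only.

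The members and gene lists were chosen with earlier results of these data known. Cells were filtered, normalized to 10000 counts and clustered (2000 variable genes without the members, 30 principal components, 20 neighbours, Louvain resolution 0.5). Unnamed clusters of at least 100 cells were clustered once more. Host clusters took the name of the cell type whose markers were highest (a mean of at least 0.4 of each marker's highest level, 3 or more at 5 CPM), unless another lineage reached 0.5 of that mean or another type had more markers among the 10 leading genes. Tumor cells were named by smoothed expression along chromosomes (slope of at least 0.8 against the clearest tumor cluster). The naming limits were tuned with the data in view. Doublets were kept, and Scrublet marked 2.90% and 2.60% of cells.

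Named genes were the members, the up to 2 highest and 2 lowest ratios of each list in macrophage-like and M-MDSC-like cells among genes with at least 100 counts, the 3 genes most like each member, leading genes of clusters and *Lmo7*. Other genes of these lists were named too, after their values were seen. Each genotype had 1 library, so no test was run. Alternatives were filters, doublets, resolutions, 20 principal components, members among clustering genes, cells without UMIs of other lineages, TMM, library size without the 10 most abundant genes, per-cell means, thinning and the count minimum. On simulated counts with 200 changed genes, 95.4% of 12131 intervals in macrophage-like cells covered the true log2 ratio. These counts were drawn with counting error only. The simulation thus checks the calculation and cannot show how the intervals fare with counts uneven over cells or mice. The tools were Python 3.11.15, numpy 2.4.6, scipy 1.17.1, igraph 0.11.9, scanpy 1.11.5 and edgeR 4.0.16 (TMM). Results that rest on items withheld for evaluation are not reported here.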

Additional observations from a re-analysis of the deposited data

Results flagged for a closer look

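The flagged results are log2 ratios of 1 gene that had opposite signs in 2 cell classes or clusters, with intervals for counting error that excluded 0. Only macrophage-like, M-MDSC-like, tumor cell-like, mesenchymal and fibroblast-like cells and the tumor clusters c1, c2 and c3 were searched. Outside this search other ratios also met the rule, such as *Ccl12* at -0.33 in macrophage-like cells and 0.55 in m2. Each genotype has 1 library, so none of these differences was tested. *Ccl2* was lower in the library labelled *Lmo7*-/- in macrophage-like cells (-0.46) and in the tumor cluster c2, led by *Car9* (-1.52), and higher in tumor cell-like cells as a whole (0.27), the tumor cluster c1 (0.66), the mesenchymal class with the tumor chromosome profile (0.44) and fibroblast-like cells (0.21). *Ccl7* was higher in M-MDSC-like cells (0.90), from 29 and 27 counts, and lower in macrophage-like (-0.43), fibroblast-like (-0.32) and tumor cell-like cells (-0.70), with c1 at -0.55 and c2 at -1.31. *Ccr2* was lower in macrophage-like cells (-0.12) and higher in M-MDSC-like cells (0.19), where its sign turned with the lenient filter, the strict filter, resolution 1.0 and the members among the clustering genes.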

How the results depend on the processing

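Of 25 log2 ratios, 17 kept their direction under every alternative, and 196 of 283 alternative values lay within the interval of the main one. The classes themselves changed, as M-MDSC-like cells numbered 742 here, 1200 to 2644 under the other filters, 20 principal components, resolution 1.0, removal of doublets or with the members among the clustering genes, and none at resolution 0.2. Few counts limit the ratios of *Ccl2*, *Ccl7* and *Ccl8* in M-MDSC-like cells. The cause of a change was not tested. No paired analysis was possible because each genotype has 1 library. For ratios with few counts, alternatives ranged from -0.33 to 0.70 (*Ccl2*) and -0.22 to 0.92 (*Ccl12*) in M-MDSC-like cells. In tumor cell-like cells they ranged from -0.66 to 0.24 (*Ccr2*) and 0.86 to 1.59 (*Ccl8*). For *Ccl7* in mesenchymal cells, with 317 and 245 counts, alternatives ranged from -0.56 to -0.19. For the other results, values outside the main interval, or with a turned sign, follow by setting as log2 ratios, in macrophage-like cells in the order *Ccl2*, *Ccl7*, *Ccl8*, *Ccl12*, *Ccr2* where all are given.

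The lenient filter gave -0.36, -0.23, 1.50, -0.43 and -0.48, *Ccl7* -0.033 and *Ccr2* -0.017 in M-MDSC-like cells, *Ccl12* -0.89 in the mesenchymal class, *Ccl2* -1.37 in the *Car9* tumor cluster and 0.48 in the other tumor clusters. Levels were 1347 CPM for *Ccl7* in fibroblast-like, 227 for *Ccl8* and 516 for *Ccl12* in macrophage-like and 349 for *Ccr2* in M-MDSC-like cells of both libraries. Tumor cell-like cells held 43.6% and 40.8% of *Ccl2*, and macrophage-like cells 52.9% of *Ccl7* (second library), 52.3% and 70.7% of *Ccl8*, 82.2% of *Ccl12* (second library) and 26.0% and 22.0% of *Ccr2*. The strict filter gave *Ccl7* -0.20, *Ccl8* 1.51 and *Ccr2* -0.33 in macrophage-like, *Ccr2* -0.099 in M-MDSC-like, *Ccl2* 0.54 and *Ccl12* -0.52 in mesenchymal, and *Ccl2* -1.31 and 0.46 in the *Car9* and other tumor clusters, with levels of 1617 (*Ccl2*), 1541 (*Ccl7*), 199 (*Ccl8*), 469 (*Ccl12*) and 437 CPM (*Ccr2*).

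Removal of doublets gave -0.36, -0.24, 1.51, -0.43 and -0.53, *Ccr2* 0.016 in M-MDSC-like cells, *Ccl2* -1.02 and 0.73 in the *Car9* and other tumor clusters, and levels of 217 (*Ccl8*), 505 (*Ccl12*) and 370.1 CPM (*Ccr2*). Resolution 0.2 gave *Ccl2* -0.30, *Ccl7* -0.16 and *Ccr2* -0.32 in macrophage-like, *Ccl2* 0.35 and *Ccl7* -0.55 in tumor cell-like cells, and *Ccl2* 0.36 and -0.0050 in the *Car9* and other tumor clusters. Resolution 1.0 gave *Ccl8* 1.46, *Ccl12* -0.42 and *Ccr2* -0.39 in macrophage-like, *Ccr2* -0.070 in M-MDSC-like, *Ccl2* 0.52 in tumor cell-like cells and -0.82 in the *Car9* cluster, with levels of 261 (*Ccl8*), 535 (*Ccl12*) and 343 CPM (*Ccr2*). With 20 principal components the values were -0.34, -0.23, 1.46, -0.40 and -0.29, *Ccl7* -0.060 in M-MDSC-like cells, and *Ccl2* -0.90 and 0.99 in the *Car9* and other tumor clusters. With the members among the clustering genes they were -0.64, -0.65, 1.27, -0.50 and -0.36, *Ccr2* -0.094 in M-MDSC-like cells, and *Ccl2* 0.46 in tumor cell-like cells, 0.35 in the mesenchymal class and -0.12 and 0.54 in the *Car9* and other tumor clusters.

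Cells without UMIs of other lineages gave *Ccl2* -0.63, *Ccl8* 1.38 and *Ccl12* -0.23 in macrophage-like, *Ccl2* 0.21 and *Ccl7* -0.41 in tumor cell-like, *Ccl2* 0.34 in mesenchymal, and *Ccl2* 0.50 and *Ccl7* -1.11 in fibroblast-like cells. TMM gave -0.37, -0.34, 1.73, -0.23 and -0.021, and the mean of per-cell CPM *Ccl2* -0.62 in macrophage-like, 0.095 in tumor cell-like and 0.18 in mesenchymal cells. Among alternatives chosen after seeing the data, unnamed clusters under their closest class gave *Ccl2* -0.26, *Ccl7* -0.14, *Ccl8* 1.23 and *Ccl12* -0.39, and macrophage-like cells without m4 and m7 *Ccl2* -0.59. Leaving out barcodes found in both libraries moved none of these values out of its interval.

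Thinned to 1000 UMIs, 49.2% of fibroblast-like cells had *Ccl2* and 51.5% *Ccl7* in the *Lmo7*+/+ library, 4.81% and 11.6% of macrophage-like cells *Ccl8* and 24.1% and 21.4% *Ccl12*, and 46.6% and 48.1% of M-MDSC-like cells *Ccr2*. Unthinned, 72.4% of fibroblast-like cells of the second library had *Ccl7*, and the other shares were 12.1% and 22.8%, 46.4% and 40.8%, and 69.8% and 71.9%. With at least 100 counts per gene, 8.01% of genes in macrophage-like, 9.75% in M-MDSC-like, 4.69% in tumor cell-like, 13% in mesenchymal and 17.9% in fibroblast-like cells were past 0.5.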

Other observations

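Endothelial-like cells, which line the vessels that monocytes leave, had *Ccl7* at 59.7 (40.3 to 85.3) and 9.68 (2.64 to 24.8) CPM from 30 and 4 counts, and 35 of their 69 *Ccl2* counts in the *Lmo7*+/+ library lay in 1 cell. Dendritic-like cells had *Ccr2* at 69.9 and 45.5 CPM, with a log2 ratio of -0.62 (-1.15 to -0.10).

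Over all deposited droplets, with no filter or clustering, *Ccl8* had 3950 and 8475 counts, or 40.1 and 105 CPM, while *Ccr2* had 3919 and 3395 counts, or 39.8 and 42.1 CPM, and *Ccl12* 12898 and 9630 counts, or 131 and 119 CPM.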
